A study of Mus musculus with 9 samples.

Results

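The genes described here build the desmosome, the spot-like junction that fastens one epithelial cell to the next. They are 10 genes listed by name: the desmosomal cadherins Dsg1a, Dsg2, Dsg3, Dsc1, Dsc2 and Dsc3, the plakin Dsp, and the armadillo proteins Jup, Pkp1 and Pkp3. Members were found by the gene symbol that the platform's annotation gives a probe set, a group of array probes for 1 transcript. Of the 10 genes, 9 had a probe set under their own symbol and were tested, out of 18193 named and 12167 tested genes. They had 20 of the 45101 probe sets, of which 18 lay over the filter on dim signals. Dsg3, a desmoglein of stratified epithelia, had no probe set under its symbol in the annotation used here and was not analysed here.

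Gene expression was measured on Affymetrix arrays in 9 oral tumors of mice aged 1 year. The tumors fall into 3 genotypes of 3 each. The p53R172H/- tumors carry 1 mutant and no normal p53 allele, the p53R172H/+ tumors carry 1 mutant beside 1 normal allele, and the p53-/- tumors lack p53. The p53R172H allele is a point mutant of the tumor suppressor. The mouse names share the prefix K-, which the labels do not spell out, and the series title speaks of Ras activation. The labels state no difference in either between genotypes. The sources used here name no promoter or recombinase for the alleles. No label says that the tumors came from different mice, so p-values measure only the spread between these tumors. Values are signal units of the deposited table, 1 per probe set and tumor.

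Desmosomal cadherins reach across the gap between cells, where desmogleins (Dsg) and desmocollins (Dsc) bind each other. Inside the cell their tails hold plakoglobin (Jup) and plakophilins (Pkp), and desmoplakin (Dsp) ties this plaque to the keratin filaments. Stratified epithelia such as oral mucosa and skin are rich in these junctions. Dsg1 and Dsc1 are known mainly from the upper layers, Dsc3 from the lower ones, and Dsg2 and Dsc2 also from simple epithelia.

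Tumors were similar in array scale and differed in markers of other tissues. Array medians were 109 to 123 signal units and the 99th percentiles 5455 to 5726. The medians were 110, 114 and 112 in p53R172H/- tumors, 109, 110 and 118 in p53R172H/+ tumors, and 118, 123 and 112 in p53-/- tumors. Centring the arrays on their medians moved the share of tested genes higher than in p53-/- tumors. It went from 43.8% to 48.4% for p53R172H/- and from 43.9% to 48.9% for p53R172H/+. The background shares and medians given below are without such centring. The summed signal of 10 epithelial markers, to which Krt14 and Krt5 give the highest signals, was 51782 to 55988 in p53R172H/- tumors, 50941 to 54855 in p53R172H/+ tumors and 49395 to 53982 in p53-/- tumors, and the groups overlapped. The mean log2 signal of the same markers, which weights them equally, was 11.17, 11.02 and 11.07 in p53R172H/- tumors, 10.79, 11.15 and 10.89 in p53R172H/+ tumors, and 10.92, 10.94 and 10.86 in p53-/- tumors. On this measure every p53R172H/- tumor lay above every p53-/- tumor. Of the 9 markers tested, 5 were higher and 4 lower on average in p53R172H/- than in p53-/- tumors. Epcam differed by 0.85 ± 0.32 on the log2 scale (adjusted p = 0.281, limma). Its groups did not overlap, where 9.11% of all genes were higher without overlap. Elf3 differed by 0.76 ± 0.48 with overlapping groups, and the other markers tested by -0.07 to 0.06. The sum of 10 skeletal muscle markers was 1033, 32730 and 15520 in p53R172H/- tumors, 1979, 776 and 5403 in p53R172H/+ tumors, and 2923, 2683 and 5116 in p53-/- tumors. The sum of 10 hair follicle markers was 4161 to 28674 in p53R172H/- tumors, 3463 to 12761 in p53R172H/+ tumors and 6674 to 13938 in p53-/- tumors. The second p53R172H/- tumor was highest on both of these lists. The 9 fibroblast markers measured summed to 18447 to 25658 in p53R172H/- tumors, 27442 to 34739 in p53R172H/+ tumors and 23201 to 37009 in p53-/- tumors. Of the 10 fibroblast markers listed, 9 were tested, and 7 were lower in p53R172H/- than in p53-/- tumors at an unadjusted p under 0.05, where 9.16% of all genes were. The same count was lower in p53R172H/- than in p53R172H/+ tumors, where 2.96% of all genes were, and none passed after adjustment by limma in either. The 9 immune markers measured summed to 3759 to 6717 in p53R172H/- tumors, 5903 to 8629 in p53R172H/+ tumors and 3498 to 5507 in p53-/- tumors, with Cd3e and Itgam under the filter in every tumor. The 7 endothelial markers summed to 1648 to 1772 in p53R172H/- tumors, 1618 to 2023 in p53R172H/+ tumors and 1567 to 1977 in p53-/- tumors, with Cdh5 under the filter. Of 7 salivary gland markers measured, 6 lay under the filter in all 9 tumors, and the list summed to 1049 to 1655 in p53R172H/- tumors, 1238 to 1968 in p53R172H/+ tumors and 1380 to 2847 in p53-/- tumors. The part of these tissues in the desmosome values was tested for epithelium and muscle only, as covariates. Fewer epithelial cells in a tumor and less RNA per cell cannot be told apart in such bulk samples.

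All 9 measured desmosome genes gave signal over the filter of 113 units in every tumor, and no member passed the test in any of 4 comparisons (limma, Benjamini-Hochberg adjusted p under 0.05 over 12167 genes). No other gene did either, so the background is 0% in each comparison. The plot of member signals by tumor shows how closely most of them agreed. Differences below are on the log2 scale, given with the standard error of the fit.

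**Figure D1:**
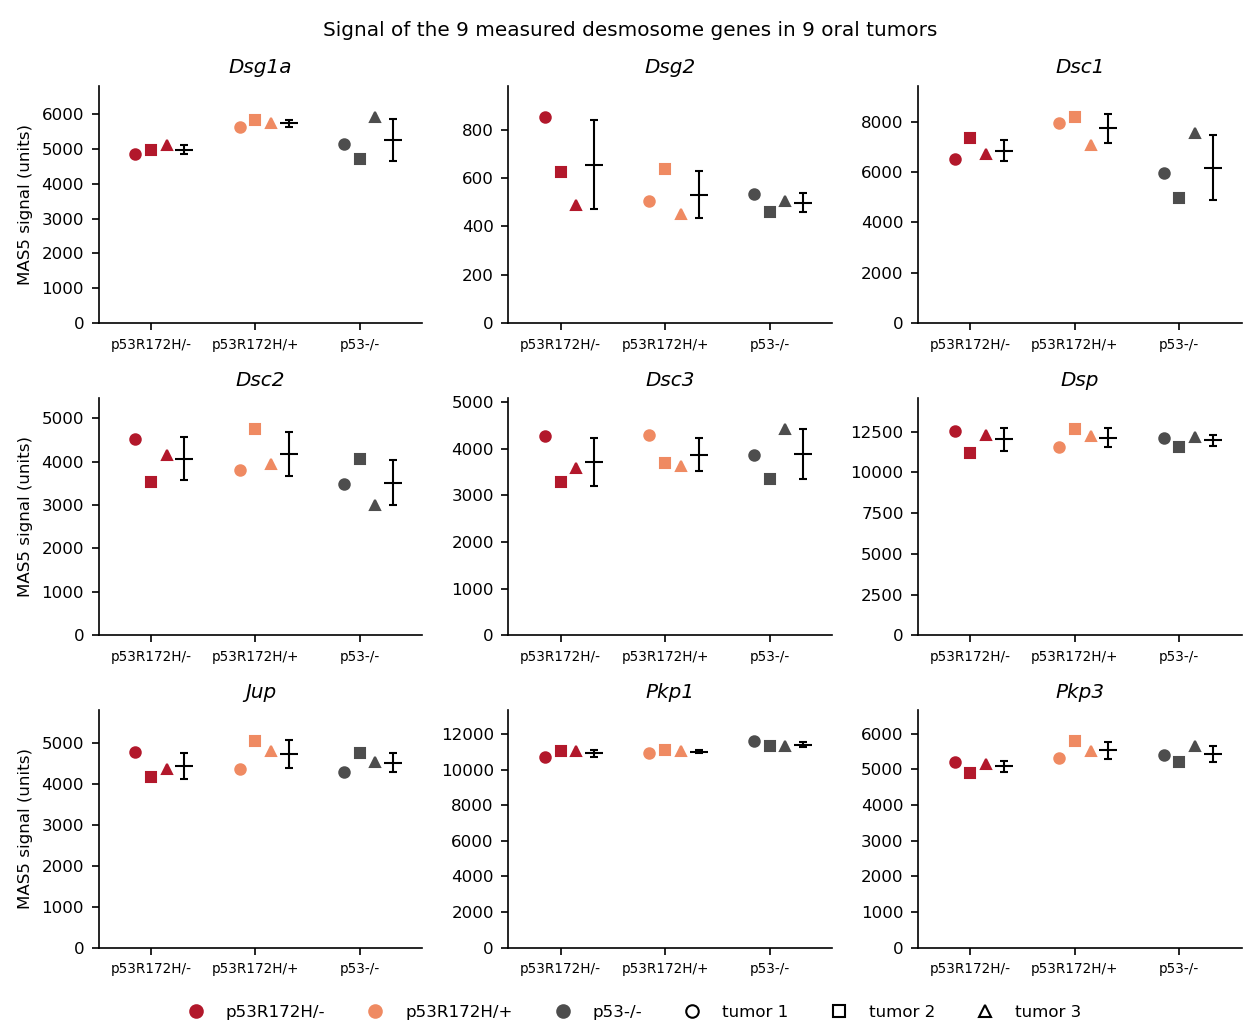
Signal (linear units, axis from 0) of the probe set used for each of the 9 measured desmosome genes in each tumor, with genotypes p53R172H/-, p53R172H/+ and p53-/- from left to right. Points are tumors and bars give the mean ± SD of 3 tumors. Pkp1 stays between 10697 and 11607 in all 9 tumors, while Dsg2 spans 451 to 853.

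The desmogleins differed from each other in how their signal varied. Dsg1a, a desmoglein of differentiated layers, had 4850, 4968 and 5117 units in p53R172H/- tumors, 5634, 5840 and 5739 units in p53R172H/+ tumors, and 5151, 4721 and 5917 units in p53-/- tumors. All p53R172H/- tumors lay below all p53R172H/+ tumors, while the p53-/- tumors spread across both. The difference of p53R172H/- from p53R172H/+ was -0.20 ± 0.08, with a 95% interval of -0.39 to -0.02, an unadjusted p of 0.0345 and an adjusted p of 0.949 (limma). Against p53-/-, Dsg1a differed by -0.07 ± 0.08 in p53R172H/- tumors and by 0.13 ± 0.08 in p53R172H/+ tumors. The mouse has closely related copies of Dsg1, and whether the probes tell Dsg1a from them was not tested.

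Dsg2, the desmoglein also known from simple epithelia, was the most variable of the members on the probe set used for each gene. It had 853, 623 and 489 units in p53R172H/- tumors, 506, 637 and 451 units in p53R172H/+ tumors, and 533, 458 and 505 units in p53-/- tumors. The first p53R172H/- tumor stood highest and the groups overlapped. The difference of p53R172H/- from p53-/- was 0.36 ± 0.20 (adjusted p = 0.401, limma), the largest in that comparison on the probe set used for each gene, and 0.15 without the first p53R172H/- tumor. That of p53R172H/+ from p53-/- was 0.08 ± 0.20, and that of p53R172H/- from p53R172H/+ was 0.28 ± 0.20, which ran from 0.07 to 0.47 with a tumor left out. Of the 6 Dsg2 probe sets, 4 passed the filter. The first p53R172H/- tumor was the highest of the 9 on 3 of these 4, at 853, 470 and 236 units. The exception, 1460380_at, read 262, 287 and 245 units in p53R172H/- tumors, 224, 263 and 294 in p53R172H/+ tumors, and 238, 221 and 244 in p53-/- tumors. The remaining probe sets, 1426153_a_at and 1449741_at, read 23.0 to 71.3 units in all tumors, under the filter.

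On the probe set used for each gene, the desmocollins Dsc1 and Dsc2 averaged more signal in both mutant genotypes than in p53-/- tumors. Neither passed the test. Dsc3 did not average more in both on the probe set used, but did on its other probe set, given below. Dsc1, the desmocollin of upper layers, had 6526, 7332 and 6700 units in p53R172H/- tumors, 7937, 8185 and 7089 units in p53R172H/+ tumors, and 5969, 4980 and 7558 units in p53-/- tumors. The second p53-/- tumor was lowest, and the third of that group lay above all p53R172H/- tumors and within the range of p53R172H/+ tumors. The difference of p53R172H/+ from p53-/- was 0.35 ± 0.14 with a 95% interval of 0.04 to 0.65, which reached an unadjusted p of 0.0309 and an adjusted p of 0.448 (limma). Without the second p53-/- tumor the difference was 0.20, and without the third it was 0.50. In p53R172H/- tumors it differed by 0.17 ± 0.14 from p53-/- and by -0.17 ± 0.14 from p53R172H/+. Against p53-/- this ran from 0.027 without the second to 0.33 without the third p53-/- tumor. The other Dsc1 probe set, 1456203_at, differed from p53-/- by -0.14 ± 0.11 in p53R172H/- tumors and by 0.04 ± 0.11 in p53R172H/+ tumors, so the probe sets disagreed in direction for p53R172H/-.

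Dsc2, the most widely expressed desmocollin, was read by a pair of probe sets that gave different pictures. On 1426911_at, which had the higher mean signal and was used for the gene, it had 4515, 3532 and 4145 units in p53R172H/- tumors, 3809, 4749 and 3944 units in p53R172H/+ tumors, and 3484, 4061 and 3010 units in p53-/- tumors. These groups overlapped, with differences from p53-/- of 0.21 ± 0.14 in p53R172H/- tumors and 0.25 ± 0.14 in p53R172H/+ tumors (adjusted p = 0.453 and 0.537, limma). Without the third p53-/- tumor they were 0.10 and 0.14, and without the second 0.32 and 0.36. On 1421156_a_at it had 5371, 3711 and 4016 units in p53R172H/- tumors, 4236, 4987 and 3736 units in p53R172H/+ tumors, and 2848, 2718 and 2556 units in p53-/- tumors. Here all 6 tumors with the mutant allele lay above all 3 tumors without p53.

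With every one of 19740 probe sets fitted on its own, Dsc2 1421156_a_at differed from p53-/- by 0.67 ± 0.15 in p53R172H/- tumors, a signal 1.59 times that of p53-/- (adjusted p = 0.235, limma). In p53R172H/+ tumors it differed by 0.67 ± 0.15 as well (adjusted p = 0.383, limma), and both comparisons share the same p53-/- tumors. The mean of both mutant genotypes differed from p53-/- by 0.67 ± 0.13 (95% interval 0.38 to 0.95, adjusted p = 0.189, limma). Between p53R172H/- and p53R172H/+ the difference was 0.01 ± 0.15. No adjusted p passed the threshold, and leaving out each tumor in turn kept the difference of both mutant genotypes from p53-/- between 0.59 and 0.72. It ran from 0.51 to 0.78 for p53R172H/- and from 0.56 to 0.76 for p53R172H/+ alone. With the skeletal muscle marker level as a covariate the probe set passed: it was higher by 0.83 in p53R172H/- tumors (adjusted p = 0.0184, 1 of 44 probe sets called) and by 0.70 in both mutant genotypes (adjusted p = 0.0122, the only probe set called). For p53R172H/+ tumors alone that fit gave 0.58 (adjusted p = 0.091), and with the epithelial marker level as the covariate the 3 differences from p53-/- were 0.46, 0.60 and 0.53 with no call. Over all alternatives the adjusted p ranged from 0.0184 to 0.867 for p53R172H/-, from 0.091 to 0.677 for p53R172H/+ and from 0.0122 to 0.717 for the mean of both.

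The gap between the 2 Dsc2 probe sets followed the same division of tumors. The log2 signal of 1421156_a_at minus that of 1426911_at was 0.25, 0.07 and -0.05 in p53R172H/- tumors, 0.15, 0.07 and -0.08 in p53R172H/+ tumors, and -0.29, -0.58 and -0.24 in p53-/- tumors. Every p53-/- tumor had a lower gap than every tumor with the mutant allele. The comparison of log2 differences within a tumor needs no shared scale between probe sets, and it is given as a description, since the pair was picked for it after its values were seen. Other pairs, as the other probe set minus the one used, differed in mean gap too, but their p53-/- tumors overlapped the rest. The p53-/- mean for Dsc3 was -2.01, beside -1.33 in p53R172H/- and -1.38 in p53R172H/+ tumors. For Dsp 1427610_at it was -1.37, beside -1.13 and -0.997. It was higher for Dsc1, 0.095 beside -0.22 and -0.21, and for Dsp 1435493_at, -0.568 beside -0.663 and -0.603. For Pkp3 the p53-/- mean of -0.90 lay between the -0.93 and -0.81 of the mutant genotypes. The second p53-/- tumor had the lowest gap of all tumors for Dsc2, Dsc3 and Dsp 1427610_at, and the highest for Dsc1. The suffix _a_at marks a probe set that Affymetrix designed to match several transcripts of 1 gene. Which Dsc2 transcripts either set reads was not tested.

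Dsc3, the desmocollin of lower layers, had 4269, 3273 and 3580 units in p53R172H/- tumors, 4281, 3686 and 3635 units in p53R172H/+ tumors, and 3870, 3350 and 4415 units in p53-/- tumors on 1434534_at. The groups overlapped, with differences from p53-/- of -0.06 ± 0.13 in p53R172H/- tumors and 0.00 ± 0.13 in p53R172H/+ tumors. The other probe set, 1427637_a_at, read 2244, 1228 and 1150 units in p53R172H/- tumors, 2138, 1230 and 1228 units in p53R172H/+ tumors, and 1012, 587 and 1488 units in p53-/- tumors. Its differences from p53-/- were larger, 0.61 ± 0.37 and 0.62 ± 0.37 in p53R172H/- and p53R172H/+ tumors, and so was its spread (adjusted p = 0.424 and 0.54, limma). They were 0.26 and 0.27 without the second p53-/- tumor, and 0.93 and 0.94 without the third. Averaging both probe sets turned the Dsc3 difference of p53R172H/- from p53-/- to 0.27. The plot of probe sets shows these disagreements within a gene.

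**Figure D2:**
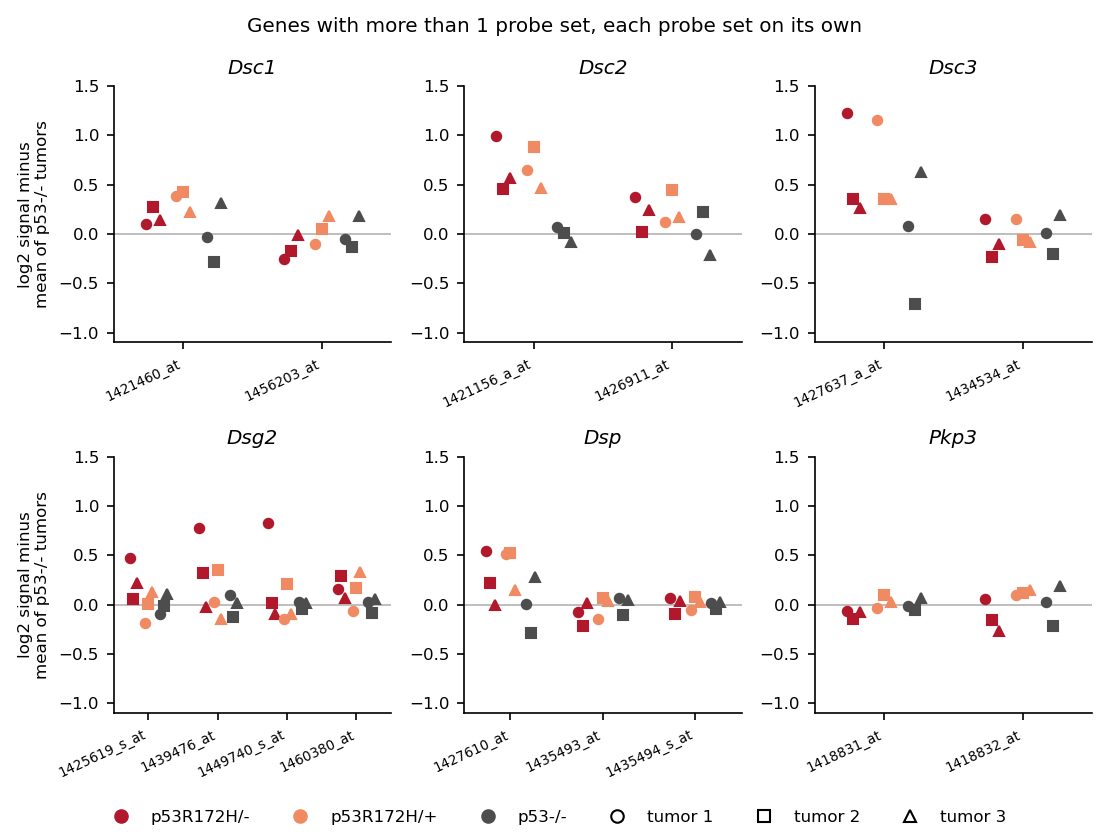
Each probe set over the filter for the 6 desmosome genes that have more than 1, in each tumor, as log2 signal minus the mean of the 3 p53-/- tumors for that probe set. Points are tumors, with p53R172H/-, p53R172H/+ and p53-/- from left to right. On Dsc2 1421156_a_at all 6 tumors with the mutant allele lie above the p53-/- tumors, while on 1426911_at the groups overlap.

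The plaque genes are described next. For desmoplakin and plakoglobin, the plaque members whose promoters the RefSeq table used here held, the 250 bases before the annotated transcription start are given to show the regulatory sequence beside the levels. Both sequences are from build GRCm38.p6, Dsp at chr13:38151044-38151293 on the plus strand and Jup at chr11:100397791-100398040 on the minus strand, 5′ to 3′, with matches to the GC box (GGGCGG) and the CCAAT box (CCAAT) on either strand in capitals.
Dsp: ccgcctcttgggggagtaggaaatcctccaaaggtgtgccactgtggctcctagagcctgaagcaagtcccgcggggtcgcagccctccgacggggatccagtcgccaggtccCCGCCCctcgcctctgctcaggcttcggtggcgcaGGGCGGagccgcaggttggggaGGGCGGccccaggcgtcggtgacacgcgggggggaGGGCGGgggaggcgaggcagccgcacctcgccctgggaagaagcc
Jup: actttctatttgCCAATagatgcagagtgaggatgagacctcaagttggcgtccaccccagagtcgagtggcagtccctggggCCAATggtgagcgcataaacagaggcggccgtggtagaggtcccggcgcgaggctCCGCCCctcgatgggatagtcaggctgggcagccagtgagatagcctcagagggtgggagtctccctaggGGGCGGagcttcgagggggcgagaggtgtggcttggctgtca

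The Dsp promoter held 4 GC boxes, which begin 137 (minus strand), 102, 80 and 45 bases before the start, and was 72.4% G or C. The Jup promoter held 2 CCAAT boxes 238 and 167 bases before the start and 2 GC boxes at 112 (minus strand) and 42 bases, and was 62.0% G or C. Over 32851 promoter windows of this length the median was 52.4% G or C, 32.7% held a GC box and 33.8% a CCAAT box. Neither sequence held the TATA box TATAAA on either strand, found in 12.4% of windows. The AP-1 letters TGANTCA, in 6.75% of windows, and the E-box CACGTG, in 6.02%, were not found in them either. These matches are letters in a window and no binding was measured.

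Dsp, the link to keratin filaments, had 12529, 11222 and 12319 units in p53R172H/- tumors, 11533, 12660 and 12232 units in p53R172H/+ tumors, and 12133, 11584 and 12190 units in p53-/- tumors on 1435494_s_at. The groups overlapped throughout. Differences were 0.01 ± 0.06 for p53R172H/- and 0.02 ± 0.06 for p53R172H/+ from p53-/-, and -0.01 ± 0.06 for p53R172H/- from p53R172H/+. The 95% interval of the first ran from -0.14 to 0.15. A second probe set, 1427610_at, read 6723, 5376 and 4608 units in p53R172H/- tumors, 6578, 6646 and 5139 units in p53R172H/+ tumors, and 4646, 3774 and 5617 units in p53-/- tumors. Its differences from p53-/- were 0.25 ± 0.18 for p53R172H/- and 0.40 ± 0.18 for p53R172H/+ (adjusted p = 0.464, limma), with overlapping groups. Without the second p53-/- tumor these were 0.11 and 0.25, and without the third 0.39 and 0.54. The remaining set, 1435493_at, gave -0.09 and -0.02 for the same comparisons.

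Jup, plakoglobin, which binds cadherin tails in desmosomes and also in adherens junctions, had 4783, 4171 and 4385 units in p53R172H/- tumors, 4365, 5053 and 4817 units in p53R172H/+ tumors, and 4298, 4761 and 4540 units in p53-/- tumors. The groups overlapped. Differences from p53-/- were -0.03 ± 0.08 for p53R172H/- and 0.06 ± 0.08 for p53R172H/+, and the mutant genotypes differed by -0.09 ± 0.08.

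Pkp1, a plakophilin of stratified epithelia that clusters desmosomal cadherins, had the lowest spread of the members. It had 10697, 11049 and 11062 units in p53R172H/- tumors, 10937, 11107 and 11034 units in p53R172H/+ tumors, and 11607, 11353 and 11324 units in p53-/- tumors. All 6 tumors with the mutant allele lay below all p53-/- tumors, by a small amount. The differences from p53-/- were -0.06 ± 0.05 for p53R172H/- and -0.05 ± 0.05 for p53R172H/+ (adjusted p = 0.504 and 0.685, limma). Its SD within groups was 0.02 on the log2 scale, lower than in all but 0.00822% of the tested genes, and limma's fit draws such a spread toward that of genes of like signal. Its signals and those of Dsp 1435494_s_at lay above the 99th percentile of every array, and whether the arrays compress differences there was not tested.

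Pkp3, a plakophilin found across most layers of stratified epithelia, had 5203, 4897 and 5137 units in p53R172H/- tumors, 5309, 5784 and 5521 units in p53R172H/+ tumors, and 5388, 5216 and 5665 units in p53-/- tumors. All p53R172H/- tumors lay below both other genotypes. The difference of p53R172H/- was -0.09 ± 0.06 from p53-/- (adjusted p = 0.469, limma) and -0.12 ± 0.06 from p53R172H/+ (adjusted p = 0.949, limma), and p53R172H/+ differed from p53-/- by 0.03 ± 0.06. The second probe set, 1418832_at, read 3013, 2607 and 2404 units in p53R172H/- tumors, 3096, 3153 and 3216 units in p53R172H/+ tumors, and 2951, 2499 and 3309 units in p53-/- tumors. On it the mutant genotypes again did not overlap, with a difference of -0.24 ± 0.12, while p53-/- tumors overlapped both.

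Counted together, the 9 members divided differently in each comparison, with small sizes. In p53R172H/- against p53-/- tumors 4 were higher and 5 lower on average, and the median difference was -0.03, as over all tested genes. None reached an unadjusted p under 0.05, where 6.44% of all genes did so as higher and 9.16% as lower. Pkp1 and Pkp3 were the 2 members whose groups did not overlap, both lower, against a background of 13.8% for lower and 9.11% for higher genes. Of all tested genes 43.8% were higher on average.

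In p53R172H/+ against p53-/- tumors 8 members were higher and 1, Pkp1, was lower on average. The median was 0.06, beside -0.03 over all tested genes, of which 43.9% were higher. One member, Dsc1, reached an unadjusted p under 0.05, where 4.75% of all genes did so as higher and 5.6% as lower. Pkp1 alone had groups that did not overlap, against a background of 8.86% for lower and 7.08% for higher genes.

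Between p53R172H/- and p53R172H/+ tumors 1 member, Dsg2, was higher and 8 were lower on average. The median was -0.07, beside -0.01 over all tested genes, of which 48% were higher. One member, Dsg1a, reached an unadjusted p under 0.05 as lower, where 2.96% of all genes did so as lower and 2% as higher. Dsg1a and Pkp3 had groups that did not overlap, against a background of 6.62% for lower and 5.27% for higher genes. For the mean of both mutant genotypes against p53-/-, 6 members were higher and 3 lower, with a median of 0.02 beside -0.03 over all genes, of which 43.5% were higher. None reached an unadjusted p under 0.05 there, where 6.84% of all genes did so as higher and 9.09% as lower. Pkp1 was the 1 member without overlap, against 3.94% for lower and 3.34% for higher genes. These comparisons share tumors, so their counts are not separate evidence.

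**Figure D3:**
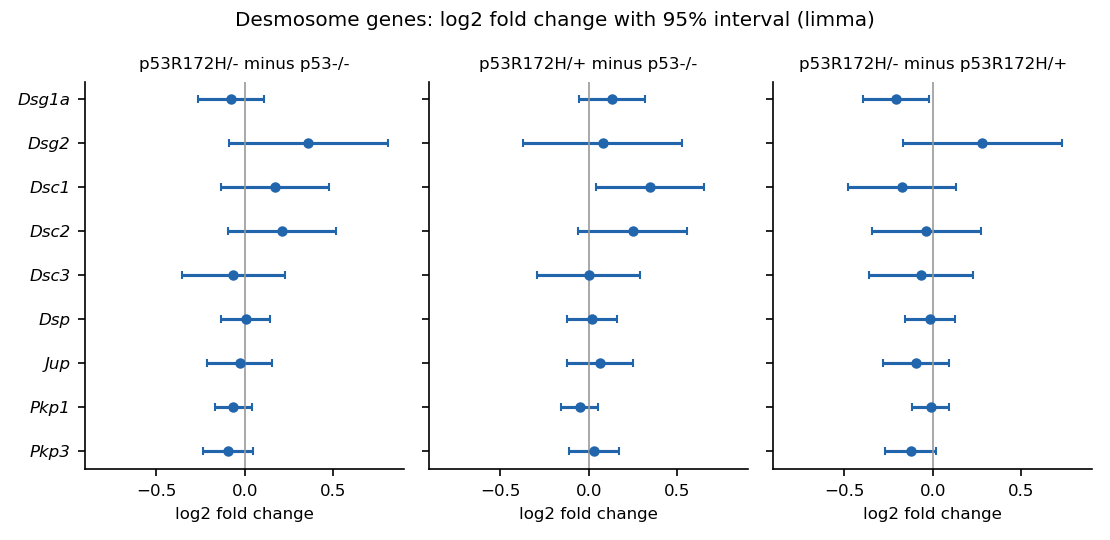
Log2 difference of each measured desmosome gene with its 95% interval, for p53R172H/- minus p53-/-, p53R172H/+ minus p53-/- and p53R172H/- minus p53R172H/+ tumors (3 tumors each). Most intervals cross 0, and those of Dsc1 in p53R172H/+ against p53-/- tumors (0.04 to 0.65) and of Dsg1a between the mutant genotypes (-0.39 to -0.02) do not, before adjustment.

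Over the 18 probe sets of members that passed the filter, 10 were higher in p53R172H/- than in p53-/- tumors and 14 in p53R172H/+ than in p53-/- tumors. The medians were 0.09 and 0.07, beside -0.02 over all probe sets in both, of which 46.7% and 46.6% were higher. In p53R172H/- tumors, 5 of the 18 were higher than in p53R172H/+ tumors, with a median of -0.05. Of all probe sets 48.9% were higher there, with a median of -0.004. At an unadjusted p under 0.05, 1 was higher and 0 lower in p53R172H/- than in p53-/- tumors, where 7.61% of all probe sets were higher and 8.05% lower. In p53R172H/+ against p53-/- tumors 3 were higher and 0 lower, beside 5.69% and 5.06% of all. Between p53R172H/- and p53R172H/+ tumors 0 were higher and 1 lower, beside 1.85% and 2.59%. For the mean of both mutant genotypes against p53-/- 1 was higher and 0 lower, beside 8.36% and 8.21%.

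Some of the members' probe sets had groups that did not overlap. In p53R172H/- against p53-/- tumors 2 were higher and 2 lower, where 10.2% of all probe sets were higher and 12.6% lower. In p53R172H/+ against p53-/- tumors 1 was higher and 1 lower, beside 7.72% and 8.27%. Between the mutant genotypes 0 were higher and 3 lower in p53R172H/- tumors, beside 5.15% and 6.11%. With both mutant genotypes against p53-/- 1, Dsc2 1421156_a_at, was higher and 1, Pkp1, was lower, beside 3.73% and 3.79%. Probe sets of 1 gene read the same RNA and are not separate observations.

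On the probe set used for each gene, the plaque members varied less over the 9 tumors than the cadherins did. The SD of log2 signal was 0.03 for Pkp1, 0.06 for Dsp, 0.07 for Pkp3 and 0.09 for Jup, and 0.0658%, 1.08%, 3.30% and 7.73% of tested genes had a lower SD. Among the cadherins it was 0.12 for Dsg1a, 0.16 for Dsc3, 0.20 for Dsc2, 0.22 for Dsc1 and 0.29 for Dsg2, beside a median of 0.18 over all tested genes. On these probe sets all 4 plaque members lay below all 5 cadherins, which is a description with no test. The other probe sets did not keep that order: Dsp 1427610_at had an SD of 0.28 and Pkp3 1418832_at of 0.17, above Dsg1a and Dsc3, and Dsc3 1427637_a_at had the highest, 0.58. The Pkp1 and Dsp sets used read above the 99th percentile of every array and that of Dsg2 read 451 to 853 units. That of Dsc1, with an SD of 0.22, read 4980 to 8185 units. Those of Jup and Dsg1a read 4171 to 5053 and 4721 to 5917 units. The part of signal level in this order was not tested.

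Some tumors ran high or low on several members at once. The second p53R172H/- tumor was the lowest of the 9 for Pkp3, Jup, Dsc3 and Dsp, and it is the one with the highest muscle and hair follicle marker sums. The second p53R172H/+ tumor was the highest for Pkp3, Dsc1, Jup, Dsc2 and Dsp. When each member was scaled to mean 0 and SD 1 over the tumors and averaged, the profile was 0.28, -0.76 and -0.25 in p53R172H/- tumors, -0.05, 0.94 and 0.15 in p53R172H/+ tumors, and -0.09, -0.56 and 0.35 in p53-/- tumors. The tumors of each genotype thus spread across 0 with no clean division.

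**Figure D4:**
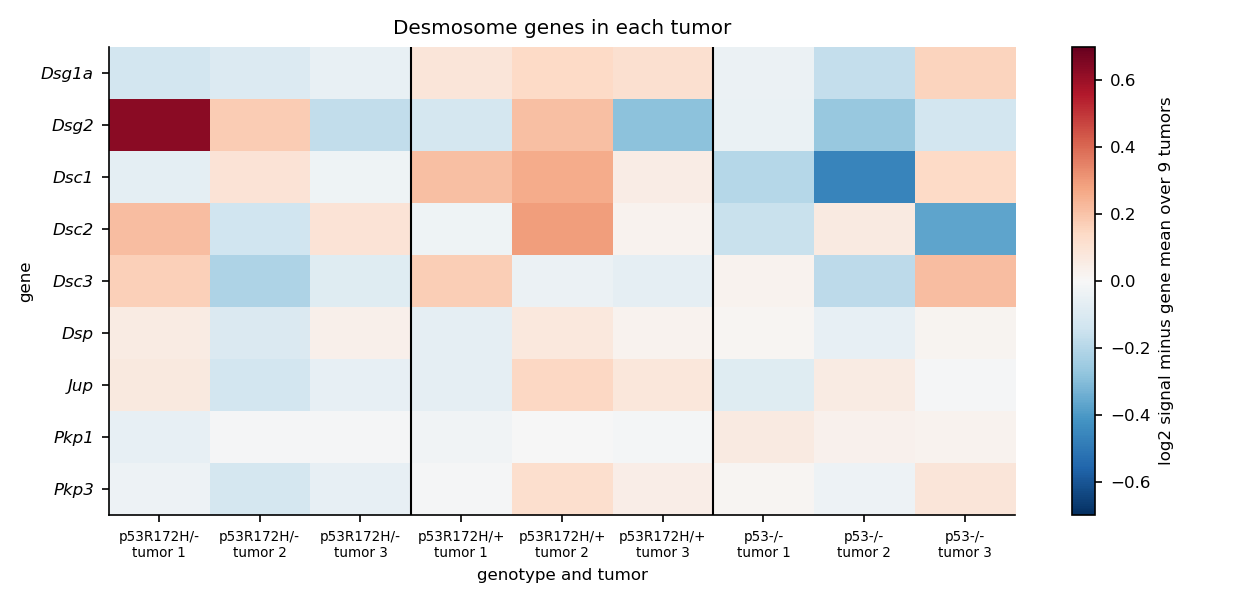
Heat map of the 9 measured desmosome genes (rows) in the 9 tumors (columns, p53R172H/-, p53R172H/+ and p53-/- from left to right), coloured by log2 signal minus the mean of that gene over all tumors. Dsg2 in the first p53R172H/- tumor is among the most intense squares, and the rows of Pkp1 and Dsp, on the probe set used for each, are nearly blank.

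Among the 36 pairs of members, 25 correlated above 0 and 11 below it over the 9 tumors, with Pearson's r from -0.55 to 0.80 and a median of 0.22. None passed after Benjamini-Hochberg adjustment over the 36 pairs, and 2 had an unadjusted exact permutation p under 0.05. Dsg1a and Pkp3 had r = 0.80 (exact permutation p = 0.0105, adjusted 0.211) and Spearman's rho = 0.82 (exact p = 0.0108, adjusted 0.373). Without the 2 tumors farthest from the median of Dsg1a, r was 0.61. Dsg1a and Dsc1, both known from upper layers, had r = 0.76 (exact permutation p = 0.0117, adjusted 0.211) and rho = 0.73 (exact p = 0.0311, adjusted 0.373), and r = 0.72 without the 2 tumors farthest from the median of Dsc1. With genotype means removed, r was 0.67 for Dsg1a with Pkp3 and 0.89 for Dsg1a with Dsc1. All values of a tumor come from 1 array, so the members share its quality and tissue content.

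By likeness to the averaged profile over the 9 tumors, the closest genes outside the list were Ptk7, with r = 0.93 and rho = 0.90, Naa40 with r = 0.92 and rho = 0.83, Furin with r = 0.91 and rho = 0.82, Wnt5a with r = 0.90 and rho = 0.87, and Eif3c with r = 0.89 and rho = 0.78. They were picked as the highest of all tested genes and have no test.

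Other junction genes set the members in context, and none passed the adjusted test in any comparison (limma). Of 10 other desmosome and plakin genes 7 were tested. Pkp2 lay under the filter in all 9 tumors, and Dsg1c and Dsg4 had no probe set under their symbols in the annotation used here. Against p53-/-, 2 of the 7 were higher and 5 lower in p53R172H/- tumors, with a median of -0.08. The split was the same in p53R172H/+ tumors, with a median of -0.02. Of all tested genes 43.8% and 43.9% were higher in these comparisons. Dsg1b, a copy of Dsg1, differed by -0.34 ± 0.13 in p53R172H/- from p53-/- tumors (adjusted p = 0.286, limma). It was the 1 with an unadjusted p under 0.05, where 9.16% of all genes were lower at that threshold. Its groups did not overlap, where 13.8% of all genes were lower without overlap, while Dsg1a overlapped in the same comparison. Perp, a membrane protein of desmosomes and a p53 target, differed from p53-/- by -0.06 ± 0.05 in p53R172H/- tumors and by 0.04 ± 0.05 in p53R172H/+ tumors.

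All 10 adherens junction genes were tested, and 8 were higher and 2 lower in p53R172H/- than in p53-/- tumors, with a median of 0.12 and none at an unadjusted p under 0.05, beside 43.8% of all tested genes higher. Ctnnd1, p120 catenin, differed by 0.31 ± 0.16 and Ctnna1, alpha-catenin, by 0.16 ± 0.09, both with no overlap between groups. Of all genes 9.11% were higher without overlap. In p53R172H/+ against p53-/- tumors 6 were higher and 4 lower, beside 43.9% of all tested genes higher. Cdh1, E-cadherin, differed by -0.15 ± 0.10 there, also with no overlap, where 8.86% of all genes were lower without overlap.

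Of 14 tight junction genes 12 were tested, with 8 higher and 4 lower in p53R172H/- than in p53-/- tumors and 7 higher and 5 lower in p53R172H/+ than in p53-/- tumors. At an unadjusted p under 0.05, 2 were higher and 1 lower in each of these comparisons, where all genes had 6.44% higher and 9.16% lower for p53R172H/- and 4.75% higher and 5.6% lower for p53R172H/+. Marveld2, tricellulin, which seals the corners where cells meet, differed by 0.58 ± 0.15 (adjusted p = 0.214) and 0.52 ± 0.15 (adjusted p = 0.359) in the p53R172H/- and p53R172H/+ tumors (limma). Tjp3, a scaffold of tight junctions, differed by -0.45 ± 0.18 and -0.44 ± 0.18 from the same p53-/- tumors. The claudin Cldn4 differed by 0.54 ± 0.22 in p53R172H/- tumors.

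Hemidesmosomes, which hold basal cells to the basement membrane, had 10 of 11 listed genes tested, and 4 were higher and 6 lower in each mutant genotype against p53-/-. At an unadjusted p under 0.05, 2 were lower in p53R172H/- and 3 in p53R172H/+ tumors, where 9.16% and 5.6% of all genes were lower, and 0 were higher. Dst, a plakin of hemidesmosomes, differed by -0.43 ± 0.14 in p53R172H/- tumors (adjusted p = 0.258) and by -0.34 ± 0.14 in p53R172H/+ tumors (limma). Plec, plectin, differed by -0.32 ± 0.13 and -0.36 ± 0.13, and the tetraspanin Cd151 by -0.13 ± 0.08 and -0.29 ± 0.08 (adjusted p = 0.433 and 0.359, limma). Of the 12 epithelial keratins, the filaments that Dsp holds, 9 were higher in p53R172H/- and 8 in p53R172H/+ than in p53-/- tumors, with a median of 0.04 in both and none at an unadjusted p under 0.05. Krt5 differed by 0.06 ± 0.08 in p53R172H/- tumors. Krt4, a keratin of oral surface layers, differed by 1.42 ± 1.03 in p53R172H/- and 1.37 ± 1.03 in p53R172H/+ tumors, with overlapping groups.

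Between p53R172H/- and p53R172H/+ tumors the same lists gave 2 higher and 5 lower other desmosome and plakin genes, 8 higher and 2 lower adherens junction genes, 6 and 6 tight junction genes, 5 and 5 hemidesmosome genes, and 5 higher and 7 lower keratins, with no adjusted call (limma). Of all tested genes 48% were higher. At an unadjusted p under 0.05, 1 adherens and 1 tight junction gene were higher, where 2% of all genes were higher and 2.96% lower. Ctnna1 differed by 0.21 ± 0.09 and the claudin Cldn1 by 0.52 ± 0.15 (adjusted p = 0.949 and 0.927, limma), both with every p53R172H/- tumor above every p53R172H/+ tumor. Perp differed by -0.10 ± 0.05, again with no overlap, beside the -0.20 of Dsg1a and the -0.12 of Pkp3 between the same tumors. Among all tested genes 5.27% were higher and 6.62% lower without overlap.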

How the data were processed

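Total RNA from 9 tumors was purified on columns, made into biotin-labelled cRNA and put on Affymetrix arrays, as the labels' protocols state. The deposited values are linear signal intensities, 1 for each probe set on each array. They were made by the authors with MAS5, per the submitters' processing notes, with no version, scaling or later step stated there. Of 45101 probe sets 64 are controls, and 34945 carry exactly 1 symbol in the platform annotation and were used, while 932 carry several and 9160 none.

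Intensities under 52.6 units, the 20th percentile of the table, were set to that floor and put on the log2 scale without normalization between arrays. A gene took the probe set whose mean was highest, and those whose mean fell under 113 units, the median of non-control probe sets, were dropped, leaving 12167 of 18193 genes. A fit of all 19740 probe sets over the filter was run beside it. A mean per genotype was fitted to all 9 arrays in R 4.3.3 by limma 3.58.1 (lmFit, then eBayes with trend), which left 6 residual degrees of freedom. Two-sided p-values were adjusted by Benjamini-Hochberg over every feature fitted, and 0.05 was the threshold. Comparisons, 4 in all, set each mutant genotype against p53-/-, both mutant genotypes against each other, and their mean against p53-/-. The number of arrays limits the precision. The fit was tested on simulated data.

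The text names all members with their probe sets and, of each other junction list, tested genes from among the 4 with the smallest p in each of the first 3 comparisons. Of marker lists it gives summed levels, and by likeness the 5 genes with the highest r. The members and lists were chosen with earlier results of these data known. The Dsc2 probe set pair was singled out after its values were seen. Promoters come from RefSeq (GRCm38.p6), in which 2 of the 10 genes matched. The p53 gene itself is not reported here, so the genotypes were not checked against it. Alternatives changed the normalization, floor, filter, probe set rule, variance model, arrays fitted, tumor number as a block, tissue markers as covariates, and left out each array.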

Additional observations from a re-analysis of the deposited data

How the results depend on the processing

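No member passed the threshold under any alternative with 1 value per gene, where the smallest adjusted p was 0.121, nor with any tumor left out. Of the values of single members, 446 kept direction and call under other settings, 18 turned and 2, of Dsc2 1421156_a_at with the muscle covariate, passed (0.83 and 0.70). With a tumor left out 327 kept and 33 turned. Of all tested genes, 0 were called in p53R172H/- against p53-/-, but 22 with the muscle marker covariate. For the mean of both mutant genotypes against p53-/-, 0 to 1 were called with 1 tumor left out, the 1 without the third p53R172H/+ tumor. The members' median in p53R172H/- against p53-/- was 0.088 over the 18 probe sets that passed the filter, in place of -0.03 with 1 per gene. That between the mutant genotypes was -0.17 with the epithelial covariate. With a tumor left out, the members' medians ran from -0.05 to 0.02 (p53R172H/- against p53-/-), 0.02 to 0.11 (p53R172H/+ against p53-/-), -0.14 to -0.02 (p53R172H/- against p53R172H/+) and -0.01 to 0.07 (mean of both against p53-/-). Directions that turned were mostly of values near 0, and the cause was not tested. Quantile normalization gave 0.015 for Pkp1 between the mutant genotypes and -0.00177 for Jup in the mean of both. The mean of probe sets gave 0.27 and 0.29 for Dsc3 in p53R172H/- and the mean of both. The epithelial covariate gave -0.095 for Dsp in p53R172H/-, -0.014 for Dsg2 and -0.011 for Dsp in p53R172H/+, -0.000433 for Dsg1a, -0.053 for Dsp and -0.071 for Jup in the mean of both, and -0.14 for Dsc2 1421156_a_at between the mutant genotypes. The muscle covariate gave 0.0020 for Dsc3 and 0.017 for Jup in p53R172H/-, -0.013 for Dsg2 and -0.036 for Dsc3 in p53R172H/+, and 0.12 for Dsc2, 0.038 for Dsc3 and 0.030 for Dsp between the mutant genotypes. With a tumor left out, the values that turned ran, in p53R172H/- against p53-/-, from -0.15 to 0.013 (Dsg1a), -0.17 to 0.033 (Dsc3), -0.025 to 0.054 (Dsp) and -0.083 to 0.016 (Jup). In p53R172H/+ against p53-/- they ran from -0.060 to 0.19 (Dsg2), -0.10 to 0.10 (Dsc3), -0.011 to 0.057 (Dsp) and -0.0016 to 0.062 (Pkp3). Between the mutant genotypes they ran from -0.12 to 0.061 (Dsc2), -0.15 to 0.12 (Dsc2 1421156_a_at), -0.17 to 0.020 (Dsc3), -0.051 to 0.034 (Dsp) and -0.020 to 0.0039 (Pkp1). In the mean of both against p53-/- they ran from -0.047 to 0.12 (Dsg1a), -0.13 to 0.066 (Dsc3), -0.011 to 0.037 (Dsp) and -0.020 to 0.054 (Jup). The labels do not say that tumor numbers pair the tumors, and these values cannot decide it. With genotype means removed, same-numbered tumors deviated together with r over 0.1 in 4 of 9 pairs (-0.50 to 0.24). Differently numbered ones did so in 5 of 18 (-0.47 to 0.52). Deviations within a genotype sum to 0, so these pairs are not separate observations. With the number as a replicate block 0 genes and 0 members were called in each comparison. Every genotype holds each number, so the block can change the spread but not the differences. The members' medians of -0.03, 0.06, -0.07 and 0.02 are therefore those of the main fit and no check of it. A fit of only the groups compared gives no separate value for the mean of both.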
